A study of Mus musculus with 16 samples.

Results

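Lin28a, Lin28b, Hmga1, Hmga2, Igf2bp1, Igf2bp2, Igf2bp3, Trim71, Arid3a and Arid3b are the oncofetal targets of the let-7 microRNAs, genes that are high in the embryo, low in most adult tissues and high again in many tumours. They were found on the arrays by gene name, with older names checked through the accession of each probe. All 10 genes were measured, on 19 of the 55681 probes, and all 10 were among the 19657 genes that passed the filter on dim probes, although 1 Arid3b probe did not. The cells were P19, a mouse embryonal carcinoma line. The 4 conditions were control, a let-7a mimic, siSfpq (a pool of siRNAs against Sfpq), and let-7a + siSfpq, with mimics and siRNAs transfected at 24 nM and RNA taken after 48 h. What the control cells of these arrays received is not given in the sources used here. Each condition had 4 arrays of 1 colour, numbered replicates 1 to 4. The methods describe replicate transfections, but the labels do not tie each array to one, so that the p-values measure the spread between these samples, part of which may be technical.

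let-7 microRNAs are absent or low in embryonic stem cells and rise as cells differentiate. They pair through their seed, bases 2 to 8, with sites in the untranslated end of messenger RNAs, which are then destabilised and translated less. Lin28a and Lin28b close a loop with let-7, since these RNA-binding proteins block the maturation of let-7 precursors while let-7 silences both. A mimic is supplied as the mature form, so that it does not pass through the step that Lin28 blocks. Sfpq is a nuclear RNA-binding protein, and the study asked whether it affects how microRNAs silence their targets.

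The mature let-7 sequences of the mouse are given first, because the seed that they share is what makes the 10 genes a group. Of the 11 mature sequences in RefSeq (GRCm38.p6), 10 have the seed of the transfected let-7a, shown in capitals, and let-7j has another seed.
let-7a-5p: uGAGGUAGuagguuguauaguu
let-7b-5p: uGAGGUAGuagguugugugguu
let-7e-5p: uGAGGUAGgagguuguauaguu
let-7i-5p: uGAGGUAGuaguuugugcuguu
miR-98-5p: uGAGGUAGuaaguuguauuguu
let-7j: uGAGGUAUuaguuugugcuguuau

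The array itself holds a let-7 match of Hmga2. The letters CTACCTC, which pair with the whole seed, were searched on the transcript strand of all probes and were found in 204 of 55681, or 0.366%, and the letters of the other strand, GAGGTAG, in 0.259%. Of the 19 probes for the 10 genes, 1 held CTACCTC. It is an Hmga2 probe at chr10:119798739-119798798 (mm9, minus strand), and the part around the match is shown 5′ to 3′ with the match in capitals.
Hmga2 probe, part: aatcaaaacacactaCTACCTCttaa
From base 2 of let-7a, 10 bases in a row were complementary to this stretch. The other 18 probes lack these letters, which says nothing about sites elsewhere in those transcripts.

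Sfpq, the gene targeted by the siRNAs, was read first in every sample. Levels are log2 of the background-corrected intensity after quantile normalisation. At single spots, arrays 1 and 2 of each condition differed by a median of 0.0616 to 0.0796, against 0.0625 between repeated spots of 1 probe on 1 array. In gene levels they differed by 0.0565 to 0.0721, against 0.114 to 0.370 for other arrays of a condition. Arrays 1 and 2 were therefore averaged and counted as 1 sample. Replicate 3 stood apart in every condition, at 0.215 to 0.370 from the other arrays, while replicate 4 was at 0.114 to 0.149 from replicates 1 and 2. Values are therefore given for 3 samples per condition, in the order replicates 1 and 2, replicate 3, replicate 4. Sfpq was at 12.07, 11.98 and 11.98 in control, and at 12.04, 11.997 and 11.90 with let-7a. It was at 10.55, 11.46 and 10.62 with siSfpq, which was 45.6% of control (log2 change −1.13 ± 0.19 SE, adjusted p = 0.00808, n = 3). With let-7a + siSfpq it was at 11.31, 11.49 and 11.41, or 65.6% of control (log2 change −0.61 ± 0.19, adjusted p = 0.195). The knockdown was thus shallower in replicate 3, and in all samples that received both molecules, than in the other siSfpq samples. Without replicate 3 both decreases passed the test (adjusted p = 1.48e-05 and 0.0014).

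**Figure D1:**
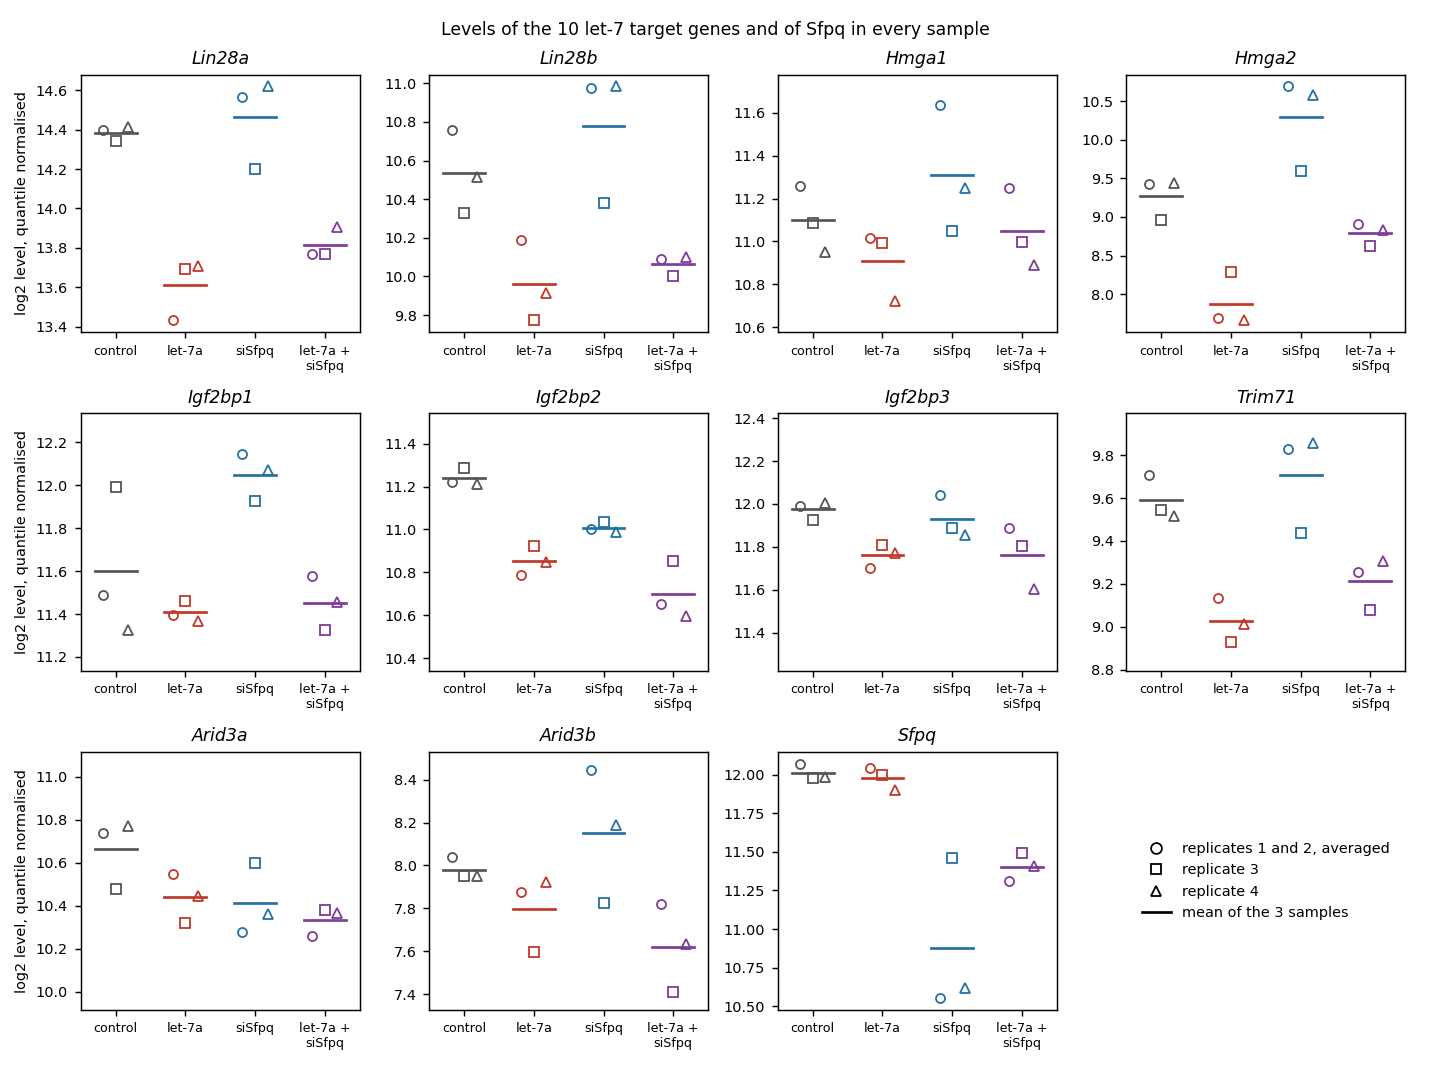
Log2 level (quantile normalised intensity, vertical axes with separate ranges) of the 10 genes and of Sfpq in each of the 4 conditions, with a symbol per sample and a bar for the mean of the 3 samples. Hmga2 was lowest with let-7a, between 7.66 and 8.29, and highest with siSfpq, between 9.60 and 10.69, and Sfpq with siSfpq was at 11.46 in replicate 3 against 10.55 and 10.62 in the other samples.

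The first comparison asked how the 10 genes respond to let-7a alone. Mean levels were lower with let-7a than with control for 10 of 10 genes, with a median log2 change of −0.31 against −0.04 over all genes tested. The decrease passed the test for 4, Hmga2, Lin28a, Trim71 and Igf2bp2, where 1.81% of all genes were called lower and 4.48% higher (limma, Benjamini-Hochberg adjusted p under 0.05). In 7 of the 10, every let-7a sample lay below every control sample, which held for 14.1% of all genes. The 10 genes were grouped here because let-7 is known to target them, so their direction is not an independent observation about let-7. In bulk RNA, fewer cells of a type and less RNA per cell cannot be told apart.

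Hmga2, a chromatin protein that bends DNA in proliferating embryonic cells, had the widest change of the 10. Its level was 9.43, 8.96 and 9.44 in control and 7.69, 8.29 and 7.66 with let-7a. The groups did not overlap, and the gap was smallest in replicate 3. The level with let-7a was 38.0% of control (log2 change −1.40 ± 0.28, adjusted p = 0.0126, n = 3). Both of its probes were lower, with changes of −1.30 for the probe with the seed match and −1.49 for the other, at chr10:119800621-119800680. Hmga1, its close relative, was at 11.26, 11.09 and 10.95 in control and 11.02, 10.99 and 10.72 with let-7a. These groups overlapped, and the log2 change of −0.19 ± 0.16 did not pass the test (adjusted p = 0.604). The 3 Hmga1 probes gave −0.16, −0.48 and 0.07. Pseudogene copies of Hmga1 lie elsewhere in the genome, so its values may be less certain, although their signal on these probes was not tested.

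Lin28a, which recruits enzymes that add uridines to let-7 precursors, was at 14.40, 14.34 and 14.41 in control. With let-7a it was at 13.43, 13.69 and 13.71, below control in every sample. This was 58.5% of control (log2 change −0.77 ± 0.12, adjusted p = 0.00282). Lin28b, which holds back let-7 maturation as Lin28a does, was at 10.76, 10.33 and 10.52 in control and 10.19, 9.77 and 9.91 with let-7a. The groups did not overlap and the change was nearly equal in the 3 samples, at −0.57, −0.55 and −0.60. The SD of its level was 0.22 in control and 0.21 with let-7a, and the change of −0.58 ± 0.18 did not pass the test (adjusted p = 0.0849). A fit blocked on the replicate number called it (adjusted p = 0.00635), where 9.9% of all genes were called lower. Lin28b was also called with the brightest probe alone (adjusted p = 0.0426) and with a block on the slide (0.0432). Both Lin28b probes were lower, by −0.53 and −0.62.

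Trim71, an RNA-binding ubiquitin ligase first known from worms as a let-7 target, was at 9.71, 9.54 and 9.52 in control and 9.13, 8.93 and 9.01 with let-7a. The groups were well apart. The level with let-7a was 67.6% of control (log2 change −0.56 ± 0.13, adjusted p = 0.0307), and the probes gave −0.55 and −0.58. With the brightest probe alone the call was lost (adjusted p = 0.0588).

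The Igf2bp genes encode proteins that bind and stabilise messenger RNAs. Igf2bp2 was at 11.22, 11.29 and 11.21 in control and 10.79, 10.93 and 10.85 with let-7a, a change of −0.39 ± 0.09 (adjusted p = 0.0319). Samples of each condition lay close together, and the level with let-7a was 76.5% of control. Scaling to the 75th percentile (adjusted p = 0.0726) or taking the brightest probe (adjusted p = 0.268) ended this call. Igf2bp3 was at 11.99, 11.93 and 12.005 in control and 11.70, 11.81 and 11.77 with let-7a, without overlap, and its change of −0.21 ± 0.10 did not pass (adjusted p = 0.238). Igf2bp1 was at 11.49, 11.99 and 11.33 in control, where replicate 3 stood above the others, and 11.39, 11.46 and 11.37 with let-7a. It was lower in 2 of 3 samples, with a change of −0.19 ± 0.15 (adjusted p = 0.555), and without replicate 3 the change was −0.03 ± 0.07 (adjusted p = 0.834).

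Arid3a and Arid3b are DNA-binding proteins of the ARID family. Arid3a was at 10.74, 10.48 and 10.77 in control and 10.55, 10.32 and 10.45 with let-7a (log2 change −0.23 ± 0.12, adjusted p = 0.343). Arid3b was at 8.04, 7.95 and 7.95 in control and 7.88, 7.60 and 7.92 with let-7a (log2 change −0.18 ± 0.18, adjusted p = 0.664). Neither passed the test, and only Arid3a overlapped between these conditions. The Arid3b probes disagreed, with −0.46 at chr9:57638549-57638608 and 0.09 for the other one kept, and the third was well above background on 3 of 16 arrays only. The mean control levels of the 2 kept probes were 10.92 and 5.04, and the gene value averages them.

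Calls in this comparison changed with the replicates in the fit. Without replicate 3, 6 of the 10 genes were called lower, with Lin28b (adjusted p = 0.00776) and Arid3a (adjusted p = 0.03) added, where 13.1% of all genes were called lower. Without replicate 4, 0 of the 10 and 2 of 19919 genes in all (0.01%) were called, and 0 of the 10 and 3 of 19994 without replicates 1 and 2. In the fit without replicate 4 the log2 change of Hmga2 was still −1.22 and that of Lin28a −0.80.

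The next comparison was the same addition of let-7a in cells that also received siSfpq, let-7a + siSfpq against siSfpq. Again 10 of 10 genes had a lower mean with let-7a, with a median log2 change of −0.51 against −0.02 over all genes. The decrease passed the test for 5, Hmga2, Lin28a, Lin28b, Igf2bp1 and Trim71, where 3.7% of all genes were called lower and 5.59% higher. Without a filter on dim probes the calls of Lin28b (adjusted p = 0.0605), Igf2bp1 (0.0619) and Trim71 (0.0602) were lost. In 7 of the 10 the groups did not overlap, which held downward for 12.3% of all genes.

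Hmga2 was at 10.69, 9.60 and 10.58 with siSfpq and 8.91, 8.63 and 8.83 with both molecules, or 35.3% (log2 change −1.50 ± 0.28, adjusted p = 0.0118). Lin28a went from 14.56, 14.20 and 14.62 to 13.77, 13.77 and 13.91, or 63.9% (log2 change −0.65 ± 0.12, adjusted p = 0.0104). In both genes replicate 3 was lower than the other samples with siSfpq, and the decrease was smallest there. Lin28b went from 10.98, 10.38 and 10.99 to 10.09, 10.003 and 10.10 (log2 change −0.72 ± 0.18, adjusted p = 0.0327). Trim71 went from 9.83, 9.44 and 9.86 to 9.26, 9.08 and 9.31 (log2 change −0.49 ± 0.13, adjusted p = 0.0444). Its probes were unequal here, at −0.28 and −0.71, and it was not called with the brightest probe alone (adjusted p = 0.275), with normexp (0.0701) or in the deposited log2 table (0.0742).

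Igf2bp1 was also called lower here. It was at 12.15, 11.93 and 12.07 with siSfpq and 11.58, 11.32 and 11.46 with both, with changes of −0.57, −0.60 and −0.61 in the 3 samples (log2 change −0.59 ± 0.15, adjusted p = 0.0353). Igf2bp2 (−0.31 ± 0.09, adjusted p = 0.0593) and Arid3b (−0.53 ± 0.18, adjusted p = 0.0782) did not overlap between the conditions and did not pass. Blocking on the replicate number called both (adjusted p = 0.0111 and 0.00898), where 15.4% of all genes were called lower. Arid3b was also called with the brightest probe alone (−0.79, adjusted p = 0.00916), with normexp (0.0471) and with a block on the slide (0.0438). Hmga1, Igf2bp3 and Arid3a differed by −0.26, −0.16 and −0.08, with adjusted p from 0.294 to 0.733. Without replicate 3, 7 of the 10 were called lower, with Igf2bp2 and Arid3b added, where 21% of all genes were. Without replicate 4, or without replicates 1 and 2, 0 of the 10 and 0 of all genes (of 19919 and 19994) were called. With these conditions fitted alone, 0 of the 10 and 198 of 19657 genes were called.

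**Figure D2:**
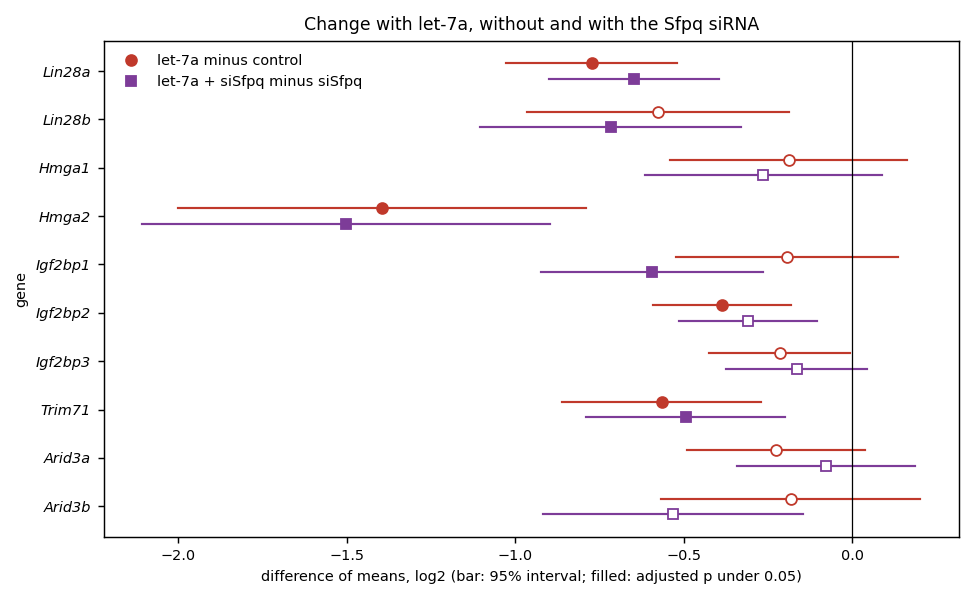
Difference of means in log2 (horizontal axis) with let-7a for each gene, without siSfpq (circles) and with it (squares), with the 95% interval of the 4-condition fit as a bar and filled symbols for an adjusted p under 0.05. Every difference lies below 0, Hmga2 is at −1.40 and −1.50, and Igf2bp1 is at −0.19 and −0.59.

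Whether siSfpq altered the response to let-7a was tested as the interaction, the let-7a change with siSfpq minus that without it, where a positive value means a smaller decrease in the knockdown. No interaction passed the test, 0 of the 10 and 0 of all 19657 genes by limma, and 0 of the 10 had an unadjusted p under 0.05 while 1185 of all genes did (0% called in either direction). For Hmga2 the interaction was −0.11 with a 95% interval of −0.96 to 0.75, and for Lin28a 0.13 with an interval of −0.23 to 0.48. The Lin28a interval leaves room for a let-7a decrease up to 0.48 smaller in the knockdown, or 0.23 larger. Trim71 (0.07, −0.35 to 0.49), Igf2bp2 (0.08, −0.21 to 0.37) and Igf2bp3 (0.05, −0.25 to 0.35) had intervals around 0 of similar width. Lin28b was at −0.14 (−0.69 to 0.41), Hmga1 at −0.08 (−0.57 to 0.42) and Arid3a at 0.15 (−0.23 to 0.52).

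Igf2bp1 and Arid3b had the most negative interactions of the 10, −0.40 (−0.87 to 0.07) and −0.35 (−0.90 to 0.20), and were the only ones with the same sign in all 3 samples. Without replicate 3 the interaction of Igf2bp1 was −0.56 ± 0.10 and passed the test (adjusted p = 0.0101), in the direction of a larger let-7a decrease with siSfpq, while Arid3b was at −0.49 ± 0.16 (adjusted p = 0.078). In that fit 9.29% of all genes were called with a negative interaction and 11.1% with a positive one, so a call was not rare there. Sfpq itself was higher with both molecules than with siSfpq alone in 3 of 3 samples (log2 difference 0.52 ± 0.19, adjusted p = 0.105, 0.0395 in the blocked fit), so the knockdown behind this comparison was unequal between its arms, and its part in the result was not tested.

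siSfpq alone was compared with control to see whether the genes move when only Sfpq is lowered. Hmga2 was the 1 gene of the 10 called, and it was higher, where 5.74% of all genes were called higher and 6.76% lower. Its level rose from 9.43, 8.96 and 9.44 to 10.69, 9.60 and 10.58, with every siSfpq sample above every control sample, or 2.02-fold (log2 change 1.02 ± 0.28, adjusted p = 0.0358). Both probes gave it, at 1.04 and 0.995. The call was lost without a filter on dim probes (adjusted p = 0.0767) and with these conditions fitted alone (adjusted p = 0.11), where 0 of all genes were called. The rise was 0.64 in replicate 3, where Sfpq had fallen by 0.52, and 1.26 and 1.14 in the other samples, where Sfpq had fallen by 1.52 and 1.36. The change of Hmga2 with let-7a alone was also smallest in replicate 3, at −0.67 against −1.74 and −1.77. A relation to the depth of the knockdown was not tested.

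Igf2bp1 was higher with siSfpq in 2 of 3 samples, with changes of 0.66, −0.07 and 0.74 (log2 change 0.45 ± 0.15, adjusted p = 0.0738, and 0.0374 in the blocked fit). Igf2bp2 went the other way, with −0.22, −0.25 and −0.22 and no overlap with control (log2 change −0.23 ± 0.09, adjusted p = 0.12, and 0.0261 in the blocked fit). The blocked fit called 17.8% of all genes higher and 19.1% lower, and groups did not overlap upward for 15% and downward for 13.8%. Among the other members, Lin28a was at 0.08 ± 0.12, Lin28b at 0.25 ± 0.18, Hmga1 at 0.21 ± 0.16, Trim71 at 0.12 ± 0.13 and Arid3b at 0.17 ± 0.18. Igf2bp3 was at −0.05 ± 0.10 and Arid3a at −0.25 ± 0.12, and no adjusted p of these was under 0.188. The median over the 10 was 0.15, against 0.01 over all genes. Without replicate 3, 5 of the 10 were called, Hmga2, Igf2bp1 and Lin28b higher (22.6% of all genes were called higher) and Igf2bp2 and Arid3a lower (24% called lower). Without replicate 4, 0 of the 10 and 0 of all genes were called, and Hmga2 was at 0.96. Without replicates 1 and 2, 0 of the 10 and 0 of all genes were called.

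siSfpq in the presence of let-7a was compared with let-7a alone to see whether the levels of let-7a targets differ once Sfpq is lowered. 0 of the 10 genes passed the test by limma, where 0.809% of all genes were called higher and 2.01% lower, and 1 of the 10, Hmga2, had an unadjusted p under 0.05. Hmga2 was at 7.69, 8.29 and 7.66 with let-7a and 8.91, 8.63 and 8.83 with both, higher in 3 of 3 samples and without overlap (log2 change 0.91 ± 0.28, adjusted p = 0.112). Groups did not overlap upward for 10.7% of all genes. In the blocked fit, which called 5.49% of all genes higher, its adjusted p was 0.0477, and without replicate 3 the change was 1.18 ± 0.07 (adjusted p = 8.49e-05). Lin28a was also higher in 3 of 3 samples, 13.77, 13.77 and 13.91 against 13.43, 13.69 and 13.71, and did not pass the test (0.20 ± 0.12, adjusted p = 0.452, and 0.27 ± 0.10, adjusted p = 0.0871 without replicate 3). Trim71 and Hmga1 were higher in all 3 samples too, at 0.19 ± 0.13 and 0.14 ± 0.16, with overlap. Igf2bp2 and Arid3b were lower in all 3, at −0.15 ± 0.09 and −0.18 ± 0.18, and Lin28b, Igf2bp1, Igf2bp3 and Arid3a lay between −0.10 and 0.11. Without replicate 3 Igf2bp2 was called lower (−0.19 ± 0.05, adjusted p = 0.0381), where 12.2% of all genes were called lower and 12.3% higher.

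**Figure D3:**
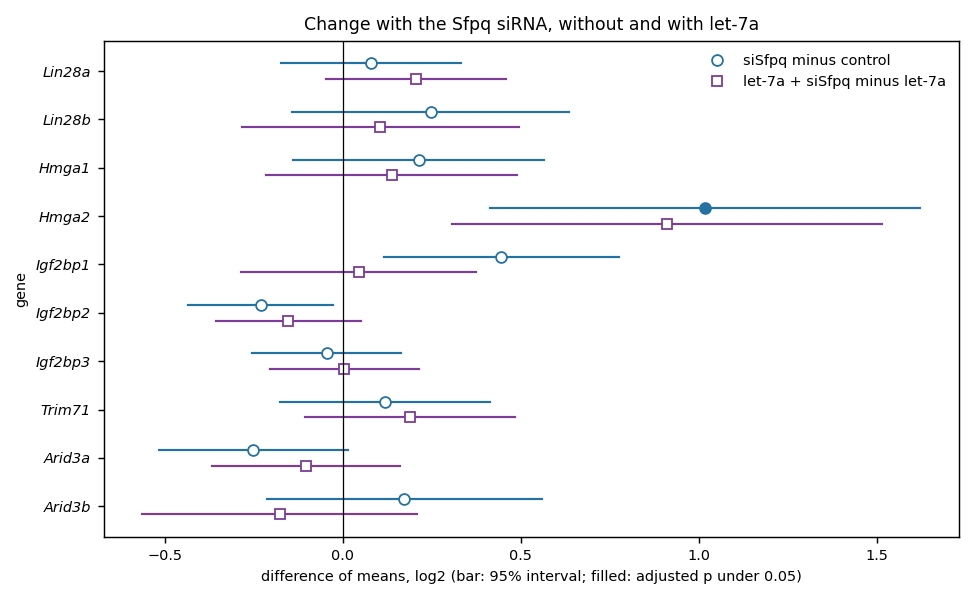
Difference of means in log2 (horizontal axis) with siSfpq for each gene, without let-7a (circles) and with it (squares), with the 95% interval of the 4-condition fit as a bar and filled symbols for an adjusted p under 0.05. Hmga2 lies furthest from 0, at 1.02 and 0.91, and the other genes between −0.25 and 0.45.

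Set against control, cells with both molecules had lower means for 10 of 10 genes, with a median log2 change of −0.37 against −0.02 over all genes. Lin28a, at 67.4% of control (log2 change −0.57 ± 0.12, adjusted p = 0.0395), and Igf2bp2, at 68.8% (−0.54 ± 0.09, adjusted p = 0.019), were called, where 0.203% of all genes were called lower and 1.12% higher. Samples of 8 of the 10 lay wholly below control, which held for 8.94% of all genes. Hmga2 was among these 8 and was at 71.5% of control, a value between let-7a and control (−0.48 ± 0.28, adjusted p = 0.602). Lin28b (−0.47 ± 0.18, adjusted p = 0.309) and Trim71 (−0.38 ± 0.13, adjusted p = 0.274) passed in the blocked fit (adjusted p = 0.0315 and 0.0369), where 2.58% of all genes were called lower. Lin28a was not called with the 75th percentile (0.0752), without the filter on dim probes (0.0776) or in the deposited log2 table (0.0601), nor Igf2bp2 with the 75th percentile (0.0658), with the brightest probe (0.162) or with these conditions fitted alone (0.0562). Without replicate 3, 6 of the 10 were called lower, where 7.02% of all genes were, Hmga2 among them (adjusted p = 0.00282). Without replicate 4, or without replicates 1 and 2, 0 of the 10 and 0 of all genes were called. Without replicate 1, Igf2bp2 was the 1 member called, where 204 of 19722 genes were, and Lin28a had an adjusted p of 0.063. This comparison shares its control samples with those of let-7a and of siSfpq alone.

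The order of levels over the 4 conditions differed between the genes. For Hmga2 it ran let-7a, let-7a + siSfpq, control, siSfpq, and no neighbours in that order overlapped. For Lin28a the order was the same, but siSfpq overlapped control. For Lin28b and Trim71 the conditions with let-7a lay below those without it, with overlap inside each pair.

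Igf2bp2 was at 11.003, 11.03 and 10.99 with siSfpq and 10.65, 10.85 and 10.60 with let-7a + siSfpq. Its lowest level was thus with both molecules, overlapping let-7a, and siSfpq lay between let-7a and control without touching either. Igf2bp3 was at 12.04, 11.89 and 11.86 with siSfpq and 11.89, 11.80 and 11.60 with both, and every neighbour overlapped. For Igf2bp1 every neighbour overlapped too, in the order let-7a, let-7a + siSfpq, control, siSfpq.

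Hmga1 was at 11.64, 11.05 and 11.25 with siSfpq and 11.25, 10.9998 and 10.89 with both, which overlapped in each step. Arid3a was at 10.28, 10.60 and 10.36 with siSfpq and 10.26, 10.38 and 10.36 with both, and was highest in control, with overlap in each step. Arid3b was at 8.45, 7.82 and 8.19 with siSfpq and 7.82, 7.41 and 7.63 with both. Arid3b was therefore lowest with both, where it overlapped let-7a, and highest with siSfpq, where it overlapped control.

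The probes of each gene show how far the sequences measured bear on these values. Of the 19 probes 18 were well above background on all 16 arrays, 17 were lower with let-7a than with control, and 19 were lower with let-7a + siSfpq than with siSfpq. The exceptions, at 0.07 and 0.09, were the Hmga1 probe at chr17:27693913-27693973 and an Arid3b probe mapped across a gap, at chr9:57640491-57642800. Igf2bp1, Igf2bp3 and Lin28a rest on 1 probe each.

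**Figure D4:**
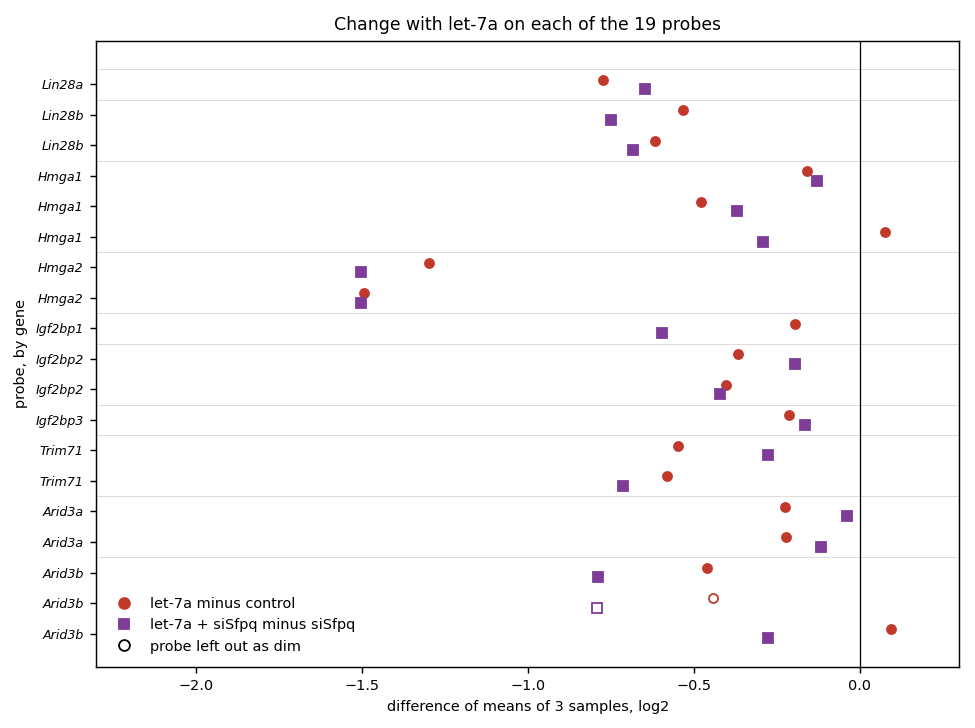
Difference of means of 3 samples in log2 (horizontal axis) on each of the 19 probes, grouped by gene, for let-7a minus control (circles) and let-7a + siSfpq minus siSfpq (squares), with the probe left out as dim drawn open. Of the circles 17 and of the squares 19 lie below 0, and the Hmga2 probes lie at −1.30 and −1.49 for let-7a minus control.

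Other known let-7 targets, mostly cell cycle and growth factor signalling genes, were read from a list of 17, all of them measured. With let-7a, 14 of 17 were lower, 2 were called lower (1.81% of all genes), and the median log2 change was −0.36 against −0.04 over all genes. Myc, a growth-promoting transcription factor, was lower (−0.92 ± 0.18, adjusted p = 0.0124), as was Dicer1, the enzyme that cuts microRNA precursors (−0.46 ± 0.09, adjusted p = 0.00994). In cells with siSfpq, let-7a brought 5 of 17 lower and 1 higher (3.7% and 5.59% of all genes), with a median of −0.28 against −0.02. Named after their values were seen, these were Myc, Ccnd1, Cdc25a, Cdk6 and Hic2, and the higher one was Igf1r. With siSfpq alone, Cdc25a and Cdk6 were called higher and Mycn, Igf1r and Dicer1 lower, also named after their values were seen. Over all genes 5.74% were called higher and 6.76% lower. The blocked fit called 4 higher and 4 lower, where 7249 of 19657 genes were called. Without replicate 3 the called genes came to 11 of 17 with let-7a against control (10 lower) and 13 of 17 in cells with siSfpq (10 lower), and in the blocked fit to 8 (7 lower) and 12 (9 lower). Over all genes the same fits called 5559 and 8974 of 20099 without replicate 3 and 4098 and 6375 of 19657 in the blocked fit.

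Genes that act with Lin28 on let-7 precursors, or process microRNAs in general, were read from a list of 9, all measured. Of these 2 were called lower with let-7a and 0 higher, where 1.81% of all genes were called lower and 4.48% higher. They were Dicer1, given above, and its partner Tarbp2 (−0.49 ± 0.11, adjusted p = 0.0224). Tut4 and Tut7, listed under the older names Zcchc11 and Zcchc6 and known as the uridine-adding enzymes, were at −0.14 ± 0.08 (adjusted p = 0.367) and 0.46 ± 0.14 (adjusted p = 0.0864, and 0.00884 in the blocked fit). With siSfpq alone Xpo5 (named after its value was seen), the exporter of microRNA precursors, was called higher (0.50 ± 0.14, adjusted p = 0.0344) and Dicer1 lower (−0.34 ± 0.09, adjusted p = 0.0281), and 0 of 9 were called when either molecule was added to the other. The blocked fit called 3 of 9 lower and 1 higher with let-7a against control, and likewise 3 lower and 1 higher with siSfpq against control. Over all genes it called 9.9% lower with let-7a, and 19.1% lower and 17.8% higher with siSfpq. It called Xpo5 (−0.33 ± 0.14, adjusted p = 0.0182), Dicer1 (−0.24 ± 0.09, adjusted p = 0.0296) and Tarbp2 (−0.33 ± 0.11, adjusted p = 0.00517) lower when let-7a was added to siSfpq. When siSfpq was added to let-7a it called Dis3l2, an exonuclease that degrades uridine-tailed RNA, lower (−0.30 ± 0.09, adjusted p = 0.0235) and Xpo5 higher (0.29 ± 0.14, adjusted p = 0.0491), with both named after their values were seen.

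Markers of cell type moved with the same conditions. Of the embryonal carcinoma markers 5 of 6 were well above background on all 4 control arrays and Zfp42 on 0 of 4. With let-7a Nanog and Utf1 were called lower, where 1.81% of all genes were. Pou5f1 (−0.15 ± 0.15, adjusted p = 0.664), Sox2 (0.12 ± 0.18, adjusted p = 0.815) and Tdgf1 (−0.75 ± 0.29, adjusted p = 0.166, and 0.0133 in the blocked fit) were not called. The markers named here and below were picked after their values were seen. The mean log2 level over the 5 was 12.04 to 12.31 in control samples, 11.53 to 12.01 with let-7a, 12.10 to 12.37 with siSfpq and 11.997 to 12.02 with both. With siSfpq alone Utf1 was called higher (0.79 ± 0.18, adjusted p = 0.0215) and Sox2 lower (−0.72 ± 0.18, adjusted p = 0.0293). Of 8 neuronal markers 6 were well above background on all 4 control arrays, and 6 were called higher with let-7a, where 4.48% of all genes were. The mean log2 level over the 8 went from 8.23 to 8.69 in control samples to 9.37 to 10.16 with let-7a, 7.42 to 7.55 with siSfpq and 8.67 to 8.87 with both. With siSfpq alone 6 of 8 were called lower, where 6.76% of all genes were.

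Of 7 primitive streak and endoderm markers 5 were tested, and Sox17 and Mixl1 were well above background on 0 of 4 control arrays. Foxa2 was well above background on 2 of 4, with a mean control log2 level of 3.84, and the other tested markers on all 4. The size of the Foxa2 changes against control is therefore uncertain, and the mean levels over the 5 include Foxa2. With let-7a T (−2.29 ± 0.36, adjusted p = 0.00404) and Gsc (−1.44 ± 0.18, adjusted p = 0.00136) were called lower, while Gata6 (1.27 ± 0.38, adjusted p = 0.0714, and 0.0005 in the blocked fit) and Foxa2 (0.87 ± 0.73, adjusted p = 0.59) had higher means and Eomes was at −0.32 ± 0.23. With siSfpq alone all 5 had higher means, and T was called (1.91 ± 0.36, adjusted p = 0.0115), with Foxa2 added in the blocked fit (1.99 ± 0.73, adjusted p = 0.00277). The mean log2 level over the 5 was 7.17 to 7.52 in control samples, 6.63 to 7.23 with let-7a, 7.93 to 8.68 with siSfpq and 7.10 to 8.14 with both. Of 5 mesenchyme markers 0 were called with either molecule alone. The blocked fit called 1 higher with let-7a, where 2151 of 19657 genes were. With siSfpq it called 2 higher and 1 lower, where 17.8% of all genes were called higher and 19.1% lower. The mean log2 level over the 5 mesenchyme markers was 6.97 to 7.43 in control samples, 7.40 to 7.81 with let-7a, 7.25 to 7.37 with siSfpq and 7.51 to 7.79 with both. In the blocked fit 3 of 5 embryonal carcinoma markers were called lower with let-7a, where 9.9% of all genes were. The part of these shifts in the changes of the 10 genes was not tested.

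The genes whose levels ran most like those of the 4 called members were read among 3040 genes whose condition means span at least 1 log2 unit. Over the 12 samples, Hmga2 ran closest to Ahcy, Col27a1 and Kmt5a (Pearson r 0.991, 0.988 and 0.983) and Lin28a to Fpgs, Bysl and Ddx21 (0.941, 0.930 and 0.916). Trim71 ran closest to Myo1g, Znrf3 and Bysl (0.957, 0.940 and 0.939), and Igf2bp2 to Klhl30, Prtg and Foxb1 with lower values (0.876, 0.872 and 0.827). Among the members, Trim71 correlated with Lin28b at 0.967 and with Lin28a at 0.933, while Arid3a correlated with Hmga2 at −0.03. All these samples share conditions and normalisation, so the values describe likeness only.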

How the data were processed

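The authors deposited scanner intensities of 16 Agilent arrays of 1 colour (Feature Extraction 10.7.3.1), already background-subtracted and detrended per the file headers, on mm9 probe coordinates, and a table of log2 values quantile normalised with limma, used as an alternative. The methods name 3 replicates. Here log2 of the processed intensity was quantile normalised, outlier spots were left out, and probes were averaged per gene if 1 or more conditions had all 4 arrays well above background (33733 to 38464 spots passed per array). No spot of the 10 genes was saturated. The number of arrays limits the precision. The 4 conditions were fitted in 1 limma 3.58.1 model (R 4.3.3, intensity trend, 12 samples), with two-sided tests and Benjamini-Hochberg adjustment over 19657 genes. The fit was tested on simulated data. An exact permutation test of 3 samples against 3 cannot go below 0.1, so none was used. Deviations of same-numbered samples correlated at 0.292 to 0.713 in all 18 pairs, so the numbers pair the samples. The fit reported leaves this pairing out, so its standard errors and intervals include the spread between replicates. Blocked values are given where they change a call of a member and, for lists, for genes named or as counts. Alternatives were 16 separate arrays, 75th percentile scaling, normexp, other filters, the brightest probe, a slide block, the compared conditions alone and leaving out replicates. The 2 slides held replicates 1 and 2, and 3 and 4, of every condition. Members and lists were chosen with earlier results of these data known. Genes named are the 10 members, Sfpq, list genes called with let-7a against control, and for each called member the 3 genes most like it; others are marked. A further list gene called with let-7a is not reported here.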

Additional observations from a re-analysis of the deposited data

How the results depend on the processing

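The number of the 10 genes called with let-7a against control (4) stayed within 1.5 times of itself in every alternative that kept all arrays, including the replicate block (5), and ran from 0 to 6 when replicates were left out. With let-7a + siSfpq against siSfpq (5) it was 7 with the replicate block, 2 without a filter on dim probes, 0 with the compared conditions fitted alone, and 0 to 7 with replicates left out. With siSfpq against control (1) it was 4 with 16 separate arrays, 2 with scaling to the 75th percentile, 3 with the replicate block, 0 without the filter or with the conditions alone, and 0 to 5 with replicates left out. With both molecules against control (2) it was 5 with 16 separate arrays, 4 with the replicate block, 0 with the 75th percentile, 1 without the filter, with the deposited log2 table, with the brightest probe or with the conditions alone, and 0 to 6 with replicates left out. With both against let-7a (0) it was 1 with 16 separate arrays or the replicate block and 0 to 2 with replicates left out, and the interaction (0) gave 0 to 1. The cause was not tested, except that fewer samples enter a fit with replicates left out or conditions alone.

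Of 890 log2 changes of single genes under alternatives, 792 kept their direction and side of the threshold and 11 reversed. Reversed were the interaction of Hmga1 (0.0071 with normexp, 0.029 with the brightest probe) and of Igf2bp3 (−0.013 with the 75th percentile), Igf2bp3 with both against let-7a (−0.00041 with normexp) and with siSfpq against control (0.061 with the 75th percentile), and Trim71 with siSfpq against control (−0.084 with the brightest probe). With replicates left out, Igf2bp1 ran from −0.29 to 0.11 with both against control and from −0.025 to 0.14 with both against let-7a, Igf2bp3 from −0.087 to 0.090 with both against let-7a and from −0.094 to 0.0062 with siSfpq, and the interaction of Trim71 from −0.020 to 0.13. None of these was called in the fit reported. The direction with let-7a, with or without siSfpq, reversed for 0 of the 10 genes. Over all genes the replicate block called 4098 against 1237 with let-7a, 7249 against 2457 with siSfpq, 1476 against 261 with both against control, 2403 against 555 with both against let-7a, 6375 against 1825 with both against siSfpq, and 4 against 0 interactions. The list counts without replicate 3 and in the blocked fit were chosen after seeing the data.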
